A study of Homo sapiens with 24 samples.

Results

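Distal H3K27ac regions without H3K4me3 were taken from the peak lists of PANC-1 cells, a cell line from a human pancreatic ductal carcinoma. H3K27ac peaks of 6 libraries were merged where they overlapped or touched, and a region was kept when it held a peak in at least 2 of the 6 lists, lay more than 5 kb from the transcription start site (TSS) of every protein-coding gene on hg19, and overlapped no H3K4me3 peak of any of 6 H3K4me3 lists. These rules left 3813 regions out of 39923 merged H3K27ac regions. The regions were thus selected on the peak calls of H3K27ac and H3K4me3 in these same lists. Of the merged regions, 27872 held a peak in at least 2 lists, 13709 of those were distal, and 9896 distal regions were set aside because they overlapped H3K4me3.

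The siControl, siControl+TGFb and siPHF13+TGFb conditions were compared, each with 2 libraries per histone mark, and every condition had received an siRNA on the day before treatment. siControl cells carried a control siRNA and no TGFβ, siControl+TGFb cells carried the control siRNA and received TGFβ at 10 ng/ml for 48 hours, and siPHF13+TGFb cells carried siRNA against PHF13, a chromatin protein that reads H3K4me3, with the same TGFβ treatment. siPHF13 without TGFβ was not analysed here, and depletion of PHF13 cannot be checked from peak lists. The labels do not say whether the 2 libraries of a condition came from separate cultures, so p-values measure only the spread between these libraries. In all 6 siPHF13+TGFb lists, the peak names carried the study's abbreviation for control cells with TGFβ, and the siControl+TGFb lists carried another tag. Groups were taken from the labels, and both the values of TGFβ against siControl and those of depletion below hold only if those labels are right.

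Enhancers are stretches of DNA, often far from promoters, that bind transcription factors and raise transcription of genes on the same chromosome. Active enhancers carry acetylation of lysine 27 on histone H3 (H3K27ac) around a nucleosome-depleted centre, whereas trimethylation of lysine 4 (H3K4me3) marks promoters and trimethylation of lysine 27 (H3K27me3) marks Polycomb-repressed chromatin. In epithelial and carcinoma cells, distal H3K27ac often accompanies binding of AP-1, a dimer of FOS and JUN family proteins, and TGFβ signals through SMAD proteins that bind DNA together with such factors. H3K4me1, the other mark by which enhancers are usually named, was not analysed here, so the regions are called distal H3K27ac regions.

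The AP-1 heptamer TGANTCA was more frequent in these regions than near promoters. The matches below are shown because their regions lie near TGFβ-responsive, matrix or transcription factor genes, or appeared or disappeared between conditions. The ME3 intron match is shown because its region was among the 5 of highest rank across the lists. Each line gives the plus strand of hg19 from 5′ to 3′ with the AP-1 letters in capitals and the distance from the summit of the strongest H3K27ac peak, negative toward lower coordinates. The windows were chosen after the position of the matches had been seen.
TGFBI, chr5:135342669-135342715, 375 bp from the summit: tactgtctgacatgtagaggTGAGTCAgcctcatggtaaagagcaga
LTBP2, chr14:75046608-75046654, -362 bp from the summit: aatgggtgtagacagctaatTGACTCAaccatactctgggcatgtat
SKIL, chr3:170048267-170048313, 328 bp from the summit: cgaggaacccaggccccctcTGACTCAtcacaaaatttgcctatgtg
ZEB1, chr10:31531996-31532042, -312 bp from the summit: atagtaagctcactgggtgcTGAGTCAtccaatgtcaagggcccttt
ITGA2, chr5:52244278-52244324, -419 bp from the summit: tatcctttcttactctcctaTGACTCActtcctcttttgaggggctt
JUN, chr1:59349124-59349170, 245 bp from the summit: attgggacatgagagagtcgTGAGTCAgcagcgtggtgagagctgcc
WWTR1, chr3:149271679-149271725, -422 bp from the summit: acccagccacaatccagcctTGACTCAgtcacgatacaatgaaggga
ETS1, chr11:128337558-128337604, -412 bp from the summit: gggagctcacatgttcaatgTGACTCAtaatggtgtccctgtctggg
ME3 intron, chr11:86343957-86344003, 336 bp from the summit: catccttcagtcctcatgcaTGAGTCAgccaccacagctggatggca
COL6A3, chr2:238207042-238207088, 478 bp from the summit: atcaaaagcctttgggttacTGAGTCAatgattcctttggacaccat
DIAPH1, chr5:140888966-140889012, 3 bp from the summit: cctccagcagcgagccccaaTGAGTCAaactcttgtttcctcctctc

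These matches stood on the shoulders of the acetylated region rather than under its summit. Across the widest regions near listed genes and the individually described regions, with the tandem repeats left out, 23 of 41 held at least 1 match. Of their 42 matches, 25 lay 200 to 450 bp from the summit and 3 lay within 100 bp of it. The DIAPH1 match, at 3 bp, was among the latter.

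A region among those with the highest rank in the H3K27ac lists was a tandem repeat of AP-1 letters, and it is shown over 300 bp because its sequence sets it apart from the others. It lay in an exon of the pseudogene AFG3L1P on chromosome 16 and held 10 AP-1 matches in the window, in capitals, and 45 over the whole region.
AFG3L1P repeat, chr16:90061643-90061942: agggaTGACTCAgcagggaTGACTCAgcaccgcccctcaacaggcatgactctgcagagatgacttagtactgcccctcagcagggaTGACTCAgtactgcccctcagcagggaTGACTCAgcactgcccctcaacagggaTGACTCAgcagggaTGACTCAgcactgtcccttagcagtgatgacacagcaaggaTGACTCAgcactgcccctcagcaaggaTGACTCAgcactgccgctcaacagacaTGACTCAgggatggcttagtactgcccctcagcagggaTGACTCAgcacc

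AP-1 matches distinguished the distal regions from promoters, with or without H3K4me3. TGANTCA lay within 500 bp of the summit at 61.8% of the regions and 52.1% of the distal regions with H3K4me3. The share was 20.3% of the TSS-proximal regions and 37.2% of all H3K27ac regions with a peak in at least 2 lists. This window had the same length for every region and reached beyond a region of the median width, 593 bp. Inside the regions themselves, 1457 of 3813 (38.2%) held a match, a share not taken for the other classes. In a narrower window of 300 bp centred on the summit, the shares were 13.6%, 11.0%, 4.76% and 8.19%. One DNA sequence underlies every library, so these shares have no replicate error and are given without a test. The heptamer reads the same letters on both strands, and a match is not evidence of a bound factor.

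Matches to AP-1 were sparse at the summit and dense around it. Between 200 and 400 bp from the summit there were 67.4 matches per 1000 regions in each 50 bp, from 2046 matches, and within 100 bp there were 22.7, from 345 matches. The ratio of flank to centre was 2.97, against 3.05 in the distal regions with H3K4me3 and 2.12 in the TSS-proximal regions. The base composition was nearly flat over the same distance, at 43.6% GC in the flank and 44.4% in the centre. Among the other motifs, the ratio in these regions was 1.73 for a CTCF motif, from 90 flank and 26 centre matches, and 1.61 for the ETS letters CCGGAAG, from 58 and 18. It was 1.53 for the forkhead letters TGTTTAC, 1.5 for the CRE letters TGACGTCA, from 9 and 3 matches, and 1.35 for TEAD. The remaining ratios were 1.20 for KLF/SP, 1.18 for RUNX, 1.06 for GATA, 1.02 for both the E-box letters CACCTG and C/EBP, 0.767 for an HNF1 motif, from 23 and 15 matches, and 0.714 for SMAD, from 10 and 7.

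**Figure D1:**
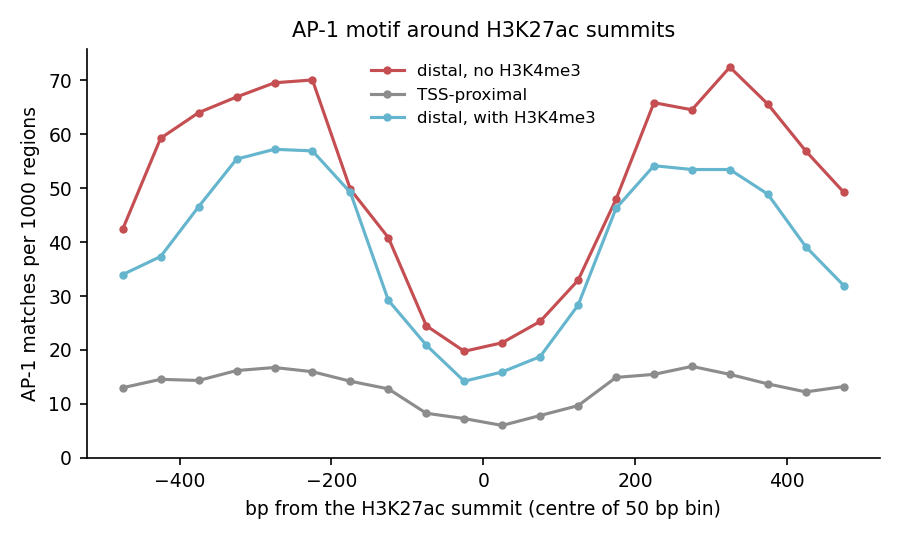
AP-1 heptamers by distance from the H3K27ac summit, as matches per 1000 regions in each 50 bp bin (vertical axis) against distance in bp (horizontal axis), for the 3 classes of H3K27ac region. In the distal regions without H3K4me3 the mean was 67.4 at 200 to 400 bp and 22.7 within 100 bp.

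Other motifs divided the regions from promoters in both directions. KLF/SP letters GGGCGGG, the GC box of promoters, lay within 500 bp of the summit in 6.14% of the regions, 18.9% of the distal regions with H3K4me3 and 69.0% of the TSS-proximal regions. RUNX letters TGTGGTT, bound by runt-domain factors, were in 21.5%, 17.0% and 9.88%, in the same order. The TEAD letters GGAATGT, bound by the partners of YAP and TAZ, were in 18.02%, 18.4% and 8.57%. GATA letters AGATAAG were in 13.7%, 11.0% and 5.81%, forkhead letters in 16.3%, 16.6% and 8.66%, and C/EBP letters TTGCNNAA in 41.7%, 37.3% and 24.8%. Both strands were searched. The palindromic SMAD letters GTCTAGAC were rare in the 300 bp window, at 0.315% of the regions and 0.169% of all H3K27ac regions.

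GC content over the 300 bp was 43.3% in the regions, 46.3% in the distal regions with H3K4me3 and 63.7% in the TSS-proximal regions. The ratio of observed to expected CpG was 0.165, 0.282 and 0.728. Within 500 bp of the summit, the shares of AP-1, KLF/SP, RUNX, GATA and C/EBP letters moved with this composition across the 3 classes. TEAD and forkhead shares were near equal in the 2 distal classes. E-box letters CACCTG were in 51.0%, 48.1% and 53.7%, in the same order of classes. The part of base composition in the motif shares was not tested.

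The regions were short and usually intronic or intergenic. Their median width was 593 bp (interquartile range 393 to 938), against 1123 bp for the distal regions with H3K4me3 and 1353 bp for the TSS-proximal regions. By the position of the summit, 1653 (43.4%) lay in an intron of a protein-coding gene, 1384 (36.3%) between genes, 520 (13.6%) in an intron of a noncoding gene and 256 (6.71%) in an exon. The median distance to a coding TSS, which the rule held above 5 kb, was 40812 bp. The fullest distance class, 10 to 50 kb, held 1628 regions (42.7%), and 291 (7.63%) lay more than 500 kb away. Regions stood alone in 2391 cases (62.7%), with no other within 10 kb. A further 434 regions formed 122 clusters of 3 or more, and the largest held 7 regions each. One of those clusters spanned 22.1 kb around the noncoding RNA gene MALAT1 (chr11:65254521-65276588) and another 31.4 kb near BLID (chr11:122037954-122069304).

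The thresholds of the rule cut through continuous values. The regions just inside the distance limit lay 5005, 5018 and 5018 bp from a TSS, and those just outside lay 4996, 4980 and 4977 bp away. Another 6670 distal regions without H3K4me3 held a peak in 1 list only and were left out. Of the regions kept, 2011 (52.7%) held a peak in exactly 2 lists, 997 (26.1%) in 3, 444 (11.6%) in 4, 318 (8.34%) in 5 and 43 (1.13%) in all 6. The nearest H3K4me3 peak lay a median of 8560 bp away, but 633 regions (16.6%) had one within 1000 bp.

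The libraries differed strongly in how many of these regions they listed. For replicates 1 and 2, the number of H3K27ac peaks was 19413 and 25929 without TGFβ, 36104 and 27110 with siControl+TGFb, and 6004 and 32403 with siPHF13+TGFb. Of the 3813 regions, 546 and 1333 held a peak without TGFβ, 3593 and 1770 with siControl+TGFb, and 65 and 3330 with siPHF13+TGFb. siPHF13+TGFb replicate 1 therefore stood apart from every other library. Only peaks were used, so the number of reads behind each list is unknown and no interval for counting error could be given. Presence of H3K27ac at the promoters of KRT8, KRT18 and VIM in all 6 lists, of KRT19 in 4 and of KRT7 in 0, with 0 lists at immune, acinar, endocrine, LUM, DCN and CDH5 promoters, was the check of the labelled cell line. PDGFRB, a fibroblast marker, held H3K4me3 in 6 lists and H3K27ac in 0, and PECAM1 was not matched.

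**Figure D2:**
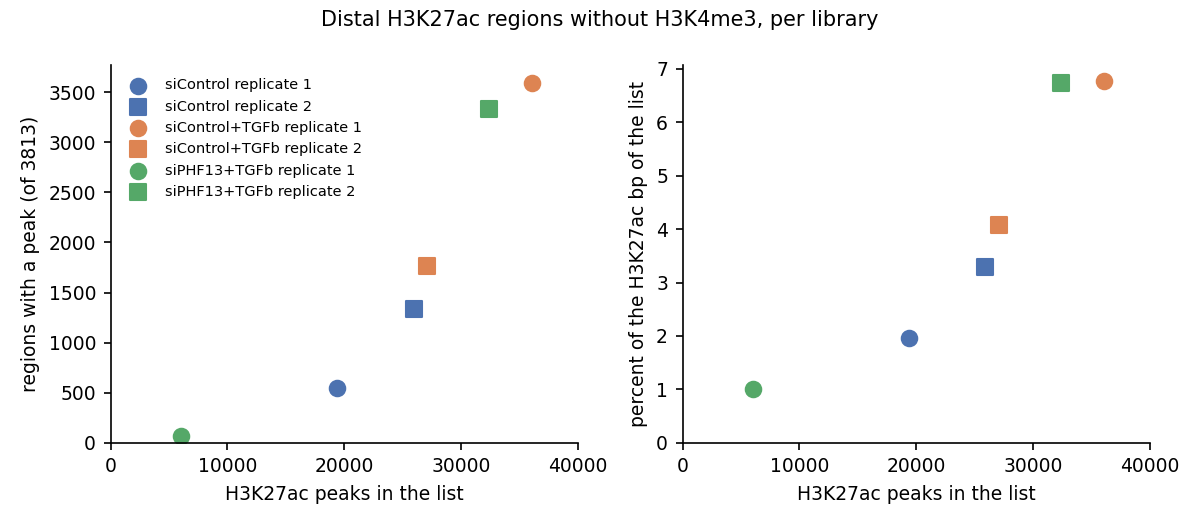
Distal H3K27ac regions without H3K4me3 in each library, plotted against the number of H3K27ac peaks in its list (horizontal axes): the number of regions with a peak on the left and their percent of all H3K27ac bp of the list on the right, with 1 point per library. siPHF13+TGFb replicate 1, with 65 of 3813 regions, stands below the other 5 libraries, which list 546 to 3593, and longer lists hold more of the regions and a larger share of their bp in them.

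The regions ranked low within every list. By −log10 q, the median percentile rank of their peaks was 27.6 and 24.99 in the siControl lists, 33.0 and 25.8 in siControl+TGFb, and 40.1 and 30.6 in siPHF13+TGFb, where 100 is the strongest peak. TSS-proximal regions had medians between 51.7 and 70.4 over the 6 lists. In all, 1399 regions (36.7%) were listed only in siControl+TGFb replicate 1 and siPHF13+TGFb replicate 2, the 2 longest lists. A further 593 (15.6%) were listed in both siControl+TGFb libraries and siPHF13+TGFb replicate 2.

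To ask how distal H3K27ac changed upon TGFβ treatment, the length of the regions covered by peaks was compared between libraries. Of the regions, 0.216 and 0.565 Mb lay under peaks in the siControl libraries and 2.16 and 0.765 Mb in the siControl+TGFb libraries. Both siControl+TGFb libraries lay above both siControl libraries. The mean rose from 0.391 ± 0.247 to 1.46 ± 0.987 Mb (SD, n = 2), a log2 difference of 1.88 with a pooled SD of 1.02. This is a description with no test, since H3K27ac peaks chose the regions and many entered through the longest lists. The difference was 1.20 with 5 lists of equal length and 0.46 with 6, and lay between 1.13, without siControl+TGFb replicate 1, and 2.63, without siControl+TGFb replicate 2. TSS-proximal regions differed by 0.66 and distal regions with H3K4me3 by 0.90 on the same scale, and both siControl+TGFb lists held more H3K27ac peaks than either siControl list. As a share of all bp in a list, the regions took 1.96% and 3.29% in siControl and 6.78% and 4.07% in siControl+TGFb, and the difference in the log2 of the share was 1.05, with a pooled SD of 0.522. With 6 lists cut to 6004 peaks the shares overlapped, at 0.734% and 0.659% in siControl and 0.698% and 0.691% in siControl+TGFb.

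Regions gained with TGFβ, defined as a peak in both siControl+TGFb libraries and in neither siControl library, numbered 907 (23.8%), against 10.8% of all H3K27ac regions tested. TSS-proximal regions gained in 845 cases (5.97%) and distal regions with H3K4me3 in 1271 (12.8%). Regions lost with TGFβ numbered 18 (0.472%), against 0.165% of all regions. A region gained by this definition meets the rule of 2 lists in each class, and 310 of the 907 were listed only in the 2 siControl+TGFb libraries. The siControl lists were the shorter pair, so the gain was recounted with 5 lists cut to the 19413 strongest peaks, leaving out siPHF13+TGFb replicate 1. Of the 1030 regions then found by the same rule, 224 (21.7%) were gained, against 6.76% of all regions, and 45 (4.37%) were lost, against 1.65%. With 6 lists cut to 6004 peaks, 12 of 84 regions (14.3%) were gained, against 5.96% of all regions. In that setting 11 (13.1%) were lost, against 4.44%.

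**Figure D3:**
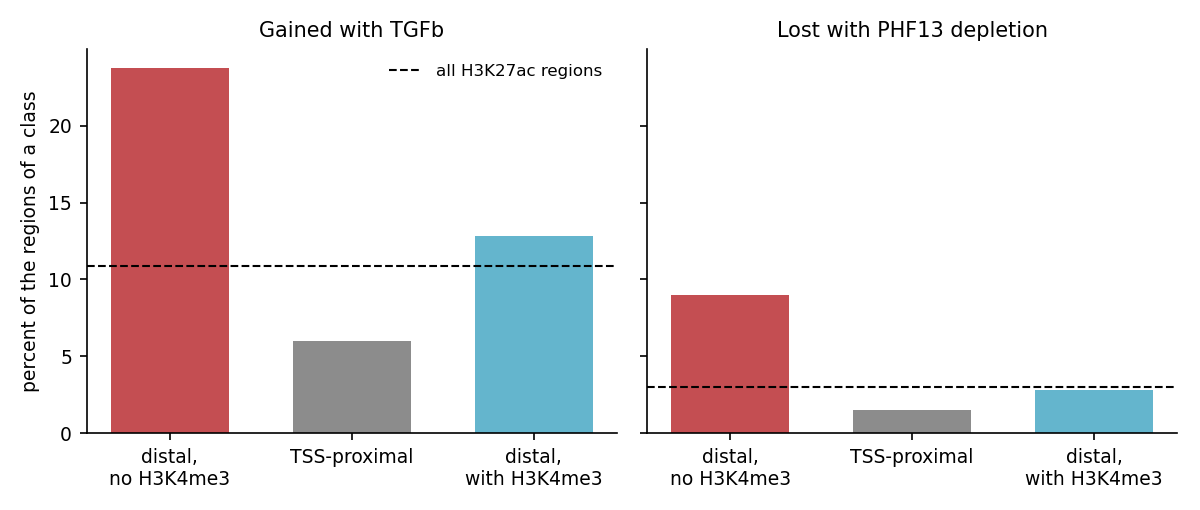
Percent of the regions of each class (bars) that were gained with TGFβ on the left and lost with PHF13 depletion on the right; the dashed line is the share of all H3K27ac regions. Gained regions made up 23.8% of the distal regions without H3K4me3 and 5.97% of the TSS-proximal regions, and lost regions 8.996% and 1.51%.

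Among the 6 widest regions gained with TGFβ were ones in KCNMA1, ETS1, HORMAD2, CLSTN1 and RAD51B. An intron of KCNMA1, a calcium-activated potassium channel, held a region at chr10:79049672-79051927 with peaks covering 0 and 0 bp in the siControl libraries, 2130 and 1455 bp with siControl+TGFb, and 158 and 2085 bp with siPHF13+TGFb. An intron of ETS1, a transcription factor of the ETS family, held one at chr11:128336849-128338722 with 0 and 0, 1874 and 1528, and 0 and 1603 bp in the same order. In both regions the siControl lists had no peak by definition, and siPHF13+TGFb replicate 2 was covered. The ETS1 region holds the AP-1 match printed above.

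A further 3 of the 6 widest gained regions are given here. A region in HORMAD2, a meiotic chromosome protein, covered 1912 and 1231 bp in siControl+TGFb and 0 and 514 bp in siPHF13+TGFb. In CLSTN1, which encodes calsyntenin 1, the values were 1695 and 1300 bp, then 0 and 1268 bp. A RAD51B intron whose nearest coding TSS was that of ZFP36L1, an mRNA decay factor, had 1687 and 1258 bp, then 0 and 1413 bp. All of them were at 0 in both siControl lists by definition.

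Of the regions lost with TGFβ, the widest lay in an exon near ANKRD10 at chr13:111617151-111618646 and held 8 tandem TGACTCA letters. Its peaks covered 626 and 1273 bp in the siControl libraries, 0 and 0 bp with siControl+TGFb, and 0 and 1403 bp with siPHF13+TGFb. Regions at ERICH1 (151 and 994 bp in siControl) and SLC12A7 (246 and 409 bp in siControl), the latter a potassium and chloride cotransporter, were also lost. Lost regions were at 0 in both siControl+TGFb lists by definition. siPHF13+TGFb replicate 2 covered 1873 bp at ERICH1 and 196 bp at SLC12A7.

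Peak width was tested with limma in the 13904 regions that held a peak in all 4 libraries of siControl and siControl+TGFb, 357 of them distal without H3K4me3. In 322 of the 357 the peaks were wider on average after TGFβ, with a median log2 difference of 0.62, against 0.50 over all regions fitted. With each library centred on its own median the difference was 0.01, and 187 of the 357 were above 0. None passed a Benjamini-Hochberg adjusted p under 0.05, where 0.00% of all regions were called, and the smallest adjusted p among them was 0.461. At an unadjusted p under 0.05, 68 were wider, against 10.5% of all regions, and 0 were narrower, against 0.0144%. The same limma fit on fold enrichment in place of width also called 0.

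TGFβ-responsive genes were examined from a list of SMAD targets. Of 14 such genes, 9 were the nearest coding gene to at least 1 distal H3K27ac region without H3K4me3 within 100 kb of a TSS. The share over 19794 coding genes was 8.66%. In this list and those that follow, a region was counted only at its nearest coding gene. Another gene within 100 kb of the same region was not credited with it. Around those 9 genes lay 22 regions, of which 8 were gained with TGFβ and 2 were lost with depletion. Around all coding genes lay 2745 such regions, of which 695 were gained and 259 lost.

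Among the negative regulators of the pathway, an intron of SMAD7, the inhibitory SMAD, held a region at chr18:46467505-46468932 whose peaks covered 0 and 0 bp in the siControl libraries, 950 and 217 bp with siControl+TGFb, and 0 and 1145 bp with siPHF13+TGFb. At SMAD6, the other inhibitory SMAD, the values were 0 and 0, 211 and 315, and 0 and 225 bp. Both were covered in both siControl+TGFb lists and in 1 siPHF13+TGFb list. The region near SKIL, which encodes the SMAD repressor SnoN, showed another pattern, with 0 and 226, 0 and 0, and 0 and 877 bp. The homeodomain corepressor TGIF1 had 0 and 279, 370 and 0, and 0 and 613 bp, so that its groups overlapped.

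Among the matrix targets, the region near TGFBI, an extracellular matrix protein, at chr5:135341670-135343531 had 0 and 0 bp in the siControl libraries, 1557 and 1080 bp with siControl+TGFb, and 0 and 1862 bp with siPHF13+TGFb. LTBP2, which belongs to the latent TGFβ binding proteins, had 0 and 0, 1094 and 423, and 0 and 1049 bp. At both genes the siControl+TGFb lists exceeded the siControl lists. BHLHE40, a basic helix-loop-helix repressor, had 0 and 0, 1583 and 487, and 0 and 257 bp. At the receptor gene TGFBR1 the groups overlapped, with 0 and 296, 190 and 0, and 0 and 0 bp.

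Of 19 genes of the epithelial to mesenchymal transition (EMT) and of matrix adhesion, 7 had a region within 100 kb, against 8.66% of all coding genes. Near them lay 23 regions, with 7 gained with TGFβ and 2 lost with depletion, beside 695 and 259 of the 2745 around all coding genes. The region near SNAI1, an EMT transcription factor, at chr20:48605175-48607203 was already listed in siControl, at 153 and 544 bp, and covered 2029 and 1050 bp in siControl+TGFb and 0 and 1342 bp in siPHF13+TGFb. ZEB1, another EMT factor, had 0 and 0, 461 and 0, and 0 and 1402 bp. Integrin genes ITGA2 (0 and 399, 1308 and 975, 0 and 1299 bp), ITGB1 (0 and 0, 953 and 274, 0 and 0 bp) and ITGA5 (0 and 0, 825 and 0, 0 and 1036 bp) differed in whether the second siPHF13+TGFb list was covered. TPM1, a tropomyosin of the actin filament, had 0 and 0, 463 and 152, and 0 and 0 bp. MMP17, a membrane-bound metalloproteinase, was covered in 1 library of each TGFβ condition, at 506 and 546 bp.

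Of 10 epithelial genes, 3 had a region within 100 kb. Near them lay 4 regions, with 1 gained with TGFβ and 0 lost with depletion, beside 695 and 259 of the 2745 around all coding genes. For this list and those that follow, the share over all coding genes with a region was 8.66%. EPCAM, an epithelial adhesion molecule, had 334 and 173, 686 and 465, and 0 and 661 bp, GRHL2, an epithelial transcription factor, had 477 and 1144, 1125 and 411, and 0 and 1434 bp, and the tight junction gene CLDN1 had 489 bp in siControl+TGFb replicate 1 and 582 bp in siPHF13+TGFb replicate 2. Of 11 AP-1 genes only JUN had one, in 5 lists, with 800 and 1264, 1757 and 1688, and 0 and 1466 bp. Of 12 TEAD and YAP genes, 3 had regions. WWTR1, which encodes the coactivator TAZ, had 747 and 872, 1341 and 1127, and 0 and 987 bp, YAP1 had 0 and 0, 281 and 220, and 0 and 326 bp, and AMOTL2, a YAP inhibitor, had 0 and 0, 791 and 272, and 0 and 0 bp. None of 4 genes of the basal pancreatic cancer subtype and 1 of 6 of the classical subtype had a region, the latter FOXA2, a forkhead factor, with 0 and 0, 479 and 206, and 0 and 493 bp.

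**Figure D4:**
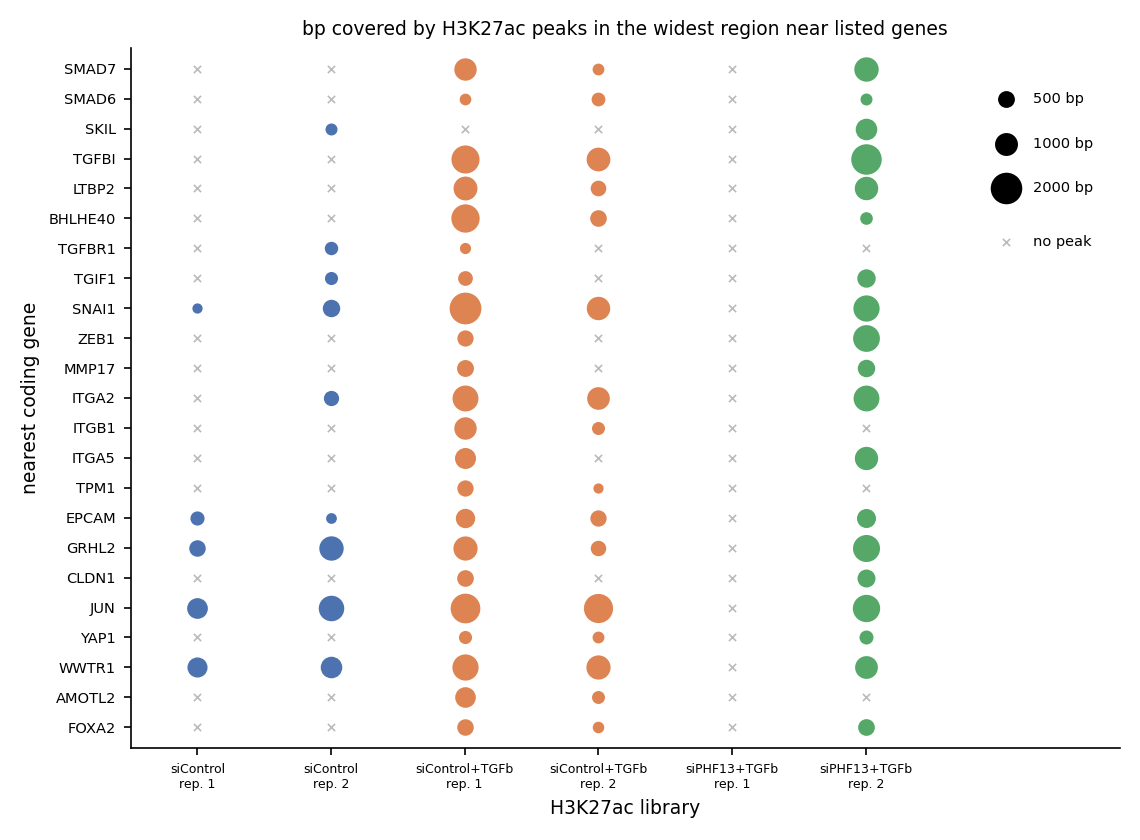
Length in bp covered by H3K27ac peaks (area of each circle, with a cross for no peak) in each library (horizontal axis) at the widest distal region without H3K4me3 near listed genes (vertical axis). At TGFBI, LTBP2 and SMAD7 both siControl+TGFb libraries exceed both siControl libraries, and siPHF13+TGFb replicate 1 has no peak.

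To ask what PHF13 depletion changed in TGFβ-treated cells, siPHF13+TGFb was compared with siControl+TGFb. Peaks covered 0.0189 and 1.94 Mb of the regions in siPHF13+TGFb, a mean of 0.980 ± 1.36 Mb (SD, n = 2). The difference in mean log2 length was -2.74 with a pooled SD of 3.42, again given as a description with no test. It was smaller than the spread between the replicates. Without siPHF13+TGFb replicate 1 the difference turned to 0.60, so its direction rested on that library. TSS-proximal regions differed by -1.64 and distal regions with H3K4me3 by -1.77.

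By presence, 343 regions (8.996%) were lost with depletion, against 3.0% of all H3K27ac regions, and 2 were gained (0.0525%), against 0.0179%. Of the 343, 310 were listed only in the 2 siControl+TGFb libraries and met the rule of 2 lists through that group alone. With a peak required in at least 3 lists, 33 regions (1.83%) were lost, against 0.478% of all regions. TSS-proximal regions were lost in 214 cases (1.51%) and distal regions with H3K4me3 in 279 (2.82%). A lost region had to be absent from siPHF13+TGFb replicate 1, which listed 65 of the 3813 regions, so loss rested in practice on replicate 2. With 5 lists of 19413 peaks and siPHF13+TGFb replicate 2 alone, 160 of 1030 regions (15.5%) were lost, against 4.17% of all regions. In the same recount 96 (9.32%) were gained, against 3.05% of all regions. Without siPHF13+TGFb replicate 2, 1636 regions (42.9%) counted as lost, fewer in proportion than the 56.5% of all regions.

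Lost regions were at 0 in both siPHF13+TGFb lists by definition, and 3 of the 5 widest are given here. Near ME3, a mitochondrial malic enzyme, the region at chr11:86436738-86438554 had 1817 and 859 bp in siControl+TGFb. Near COL6A3, a chain of collagen VI, the region at chr2:238205657-238207398 had 1742 and 887 bp. The region near DIAPH1, an actin-nucleating formin, had 1294 and 471 bp. The DIAPH1 region lay in introns of the protocadherin gamma cluster. All 3 were at 0 in both siControl lists.

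Both gained regions were short. One in an exon at PLEKHA5 had 188 and 649 bp in siPHF13+TGFb, and one in an intron of SMARCC1, a chromatin remodeller subunit, had 184 and 276 bp. The width fit over all 6 libraries held 43 of these regions among 4966. limma called 0 at an adjusted p under 0.05 and 0 at an unadjusted p under 0.05, against 0.00% of all regions in each case, with a median log2 difference of -1.01 against -1.04 over all regions. The median turned to 0.14 with each library centred on its own median, and to 0.28 over 355 of the regions without siPHF13+TGFb replicate 1. Without siPHF13+TGFb replicate 2, 37 of the 43 were called narrower, beside 4463 of all 4966 regions. In the TGFβ comparison without siControl replicate 2, 40 of 400 were called wider, beside 898 of all 14143. Both fits leave 1 library in a group, which is then taken to vary like the other groups.

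AP-1 letters were about as frequent in the regions gained with TGFβ and lost with depletion as in all the regions, and were found in fewer of the 18 lost with TGFβ. Within 500 bp of the summit, 597 of the 907 regions gained with TGFβ (65.8%) and 211 of the 343 lost with depletion (61.5%) held a match, beside 61.8% of all the regions and 6 of the 18 lost with TGFβ. By library, the share in this window was 64.6% and 60.9% in siControl, 62.9% and 64.9% in siControl+TGFb, and 68.8% and 62.8% in siPHF13+TGFb, so that the groups overlapped. In the regions listed by all 4 libraries of siControl and siControl+TGFb, the share was 71.0% of 355. In the 300 bp window it was 10.9% of 357, beside 13.6% of all the regions. Within 500 bp, gained TSS-proximal regions held a match in 32.9% and gained distal regions with H3K4me3 in 58.6%. In the 300 bp window, the share among regions with a peak was 11.7% and 12.4% in siControl, 13.7% and 13.6% in siControl+TGFb, and 20% and 13.7% in siPHF13+TGFb, where the former came from 65 regions. The difference with TGFβ was 1.605 points with a pooled SD of 0.331, and with depletion 3.21 points with a pooled SD of 3.14, and the exact permutation test gave p = 0.333 for each, the smallest value that 2 against 2 libraries allow. The first turned to -5.62 points with the whole region searched and -5.57 with 6 equal lists. The second was 0.0692 points without siPHF13+TGFb replicate 1 and turned to -1.52 points with 500 bp centred on the summit.

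H3K27me3, which the rule did not use, covered few of the regions. An H3K27me3 peak overlapped 6.03% and 7.37% of them in siControl, 6.01% and 6.29% in siControl+TGFb, and 4.14% and 5.80% in siPHF13+TGFb. siControl and siControl+TGFb overlapped, and both siPHF13+TGFb libraries lay below both siControl+TGFb libraries. The means moved from 6.70 ± 0.946% to 6.15 ± 0.204% with TGFβ (exact permutation p = 0.667) and to 4.97 ± 1.17% with depletion (SD, n = 2, exact permutation p = 0.333). With lists cut to equal length the difference with depletion was -0.957 points (exact permutation p = 0.667), without siPHF13+TGFb replicate 1, the shortest H3K27me3 list at 59573 peaks, it was -0.354, and without regions near assembly gaps -0.268. The same difference was -0.505 points in TSS-proximal regions and -1.496 in distal regions with H3K4me3 (exact permutation p = 0.333 for each). In all, 3502 regions (91.8%) had no H3K27me3 in any list.

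Coverage by H3K27me3 lay between that of the other classes. In bp per 100 bp of region, the mean over the 6 libraries was 2.25 in the regions, 0.492 in TSS-proximal regions and 4.59 in distal regions with H3K4me3. With all regions counted, they were higher than TSS-proximal regions in 6 of 6 libraries, by 1.75 ± 0.241 (SD), and lower than distal regions with H3K4me3 in 6 of 6, by -2.35 ± 0.105, with an exact sign-flip permutation p = 0.03125 for each, the smallest that 6 libraries allow. With the regions that carried H3K27me3 in all 6 lists left out of both classes, the difference from TSS-proximal regions fell to 0.536 and that from distal regions with H3K4me3 turned to 0.06 (exact sign-flip permutation p = 0.28125). With regions within 1 Mb of an assembly gap left out, the differences were 0.12 and -0.34.

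**Figure D5:**
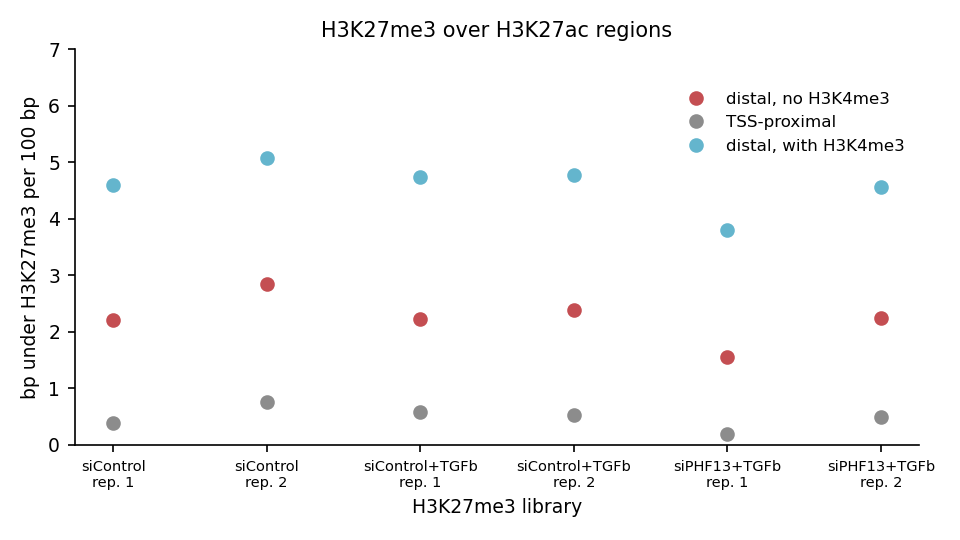
H3K27me3 coverage in bp per 100 bp of region (vertical axis) of the 3 classes of H3K27ac region in each H3K27me3 library (horizontal axis), with 1 point per class and library. The distal regions without H3K4me3 lie above the TSS-proximal regions and below the distal regions with H3K4me3 in 6 of 6 libraries.

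Regions with H3K27me3 in all 6 lists were a distinct subset of 141 (3.70%). Their median width was 256 bp, against 624 bp for regions with none, and their median distance to a coding TSS was 403016 bp. Of them, 115 (81.6%) lay within 1 Mb of an assembly gap of 50000 bp or more, such as a centromere, against 11.4% of the regions without H3K27me3. The part of these positions in the H3K27me3 calls was not tested. AP-1 letters lay within 500 bp of the summit in 29 of the 138 with a complete sequence (21.01%) and in 2268 of 3490 regions without H3K27me3 (64.99%), and no member of the subset was listed in all 6 H3K27ac lists.

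The 5 regions that ranked highest across the lists were each listed 6 times, and 4 are given here. The AFG3L1P repeat at chr16:90060891-90062714 covered 1673, 1656, 1732, 1506, 947 and 1824 bp in the libraries from siControl replicate 1 to siPHF13+TGFb replicate 2, with a mean percentile rank of 92.5, and lay 133 bp from an H3K4me3 peak. A region in ERRFI1-DT, a noncoding gene beside the EGFR inhibitor ERRFI1, covered 1620, 1809, 2472, 2167, 425 and 1976 bp. A region near KRT80, an epithelial keratin, covered 1704, 2032, 2191, 1945, 533 and 1964 bp, and one in an intron of ME3 covered 1399, 1603, 2044, 1831, 719 and 2004 bp. In all 4 the shortest coverage was in siPHF13+TGFb replicate 1.

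Some regions lay at annotated TSSs of noncoding genes, since the rule measured distance to protein-coding TSSs only. A noncoding TSS lay inside 90 regions (2.36%) and within 1 kb of 269 (7.05%), against 16.9% of the distal regions with H3K4me3. The region at chr11:65265268-65266427 lay over a TSS of MALAT1, an abundant nuclear RNA, 397 bp from an H3K4me3 peak, and covered 924, 1034, 1064, 967, 218 and 1160 bp. LINC01619 covered 762, 1719, 2111, 2005, 370 and 2222 bp.

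The genes nearest to most regions fell into 2 kinds. SMAD3, which transmits the TGFβ signal to the nucleus, was nearest to 16 regions, 13 of them inside the gene, and KLF6, a zinc finger transcription factor, to 16. KCNMA1 followed with 13, all inside the gene, as did MYC, the oncogenic transcription factor, with 13, and then BLID with 11 and SPRY2, an inhibitor of receptor tyrosine kinase signalling, with 11. The other kind was ZNF722 with 25, RP11-685N3.1 with 17, TPTE with 13 and SPIN4 with 12, where each of these regions lay within 1 Mb of an assembly gap.

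At SMAD3, peaks covered 1937 and 4177 bp of its regions in the siControl libraries, 12194 and 5226 bp with siControl+TGFb, and 0 and 10793 bp with siPHF13+TGFb. Of its 16 regions, 5 were gained with TGFβ and 0 lost with depletion, beside 23.8% and 8.996% of all the regions. One intronic region, chr15:67397990-67399226, was listed in 5 libraries, at 285 and 715, 1119 and 1157, and 0 and 1224 bp, and another, chr15:67471382-67472149, was gained, at 0 and 0, 768 and 529, and 0 and 328 bp. KLF6 had 2005 and 6059, 11406 and 4582, and 174 and 10068 bp, so that siControl replicate 2 lay above siControl+TGFb replicate 2. MYC had 389 and 2164, 9091 and 2690, and 0 and 5789 bp, and SPRY2 had 350 and 1298, 6109 and 1536, and 0 and 5545 bp. In the regions nearest to each of these 4 genes, siPHF13+TGFb replicate 1 was lowest and siControl+TGFb replicate 1 highest. By the position of the summit, none of the regions of KLF6, MYC and SPRY2 lay inside the gene. The KLF6 region at chr10:3817757-3818441 had its summit outside but overlapped the gene. The regions of these genes lay 8944 to 494502, 70693 to 818704 and 20786 to 351386 bp from a coding TSS, in that order.

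In all, 2086 of 19794 coding genes were nearest to a region, 1291 of them to 1 region and 127 to 5 or more. H3K27ac lay within 1000 bp of a TSS in at least 1 list at 74.9% of these genes and 58.7% of the other genes, and H3K4me3 at 84.0% and 72.2%. H3K27me3 showed the opposite order, at 23.7% and 34.3%. These shares carry no test, since genes share libraries and the nearest gene need not be the target of a region.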

How the data were processed

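ChIP-seq libraries of PANC-1 cells were processed by the study with Trim Galore 0.4.1, Bowtie2 2.4.1 on hg19, Picard and MACS2 2.2.7.1 against input, and peaks were called for each library separately, narrow for H3K4me3 and H3K27ac and broad for H3K27me3. The 18 deposited lists hold, per the file headers and methods, peak positions, a score, the fold enrichment over input as a ratio, and −log10 p and −log10 q values, all as the authors deposited them. The summit offset in the deposited narrow lists is a position in bp (other). The methods state a stricter q limit for narrow peaks than these lists show, whose lowest −log10 q was 1.30. No counts were used, so depth is unknown. Values of the 6 input samples were not analysed here.

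Regions were built with Python 3.11.15 from the peaks as listed. Coding TSSs were the starts of protein-coding transcripts in GENCODE release 44 on GRCh37, and sequences came from the GRCh37 genome. Members and gene lists were chosen with earlier results of these data known. Described regions were the 5 with the highest mean percentile rank, the 6 widest gained and 3 widest lost with TGFβ, and the 3 widest gained and 5 widest lost with depletion (2 were gained). Some of these regions and genes are not reported here. Described genes were the 10 nearest to most regions and the listed genes that were the nearest coding gene to a region within 100 kb, by their widest region. Covered length is described without a test, since peak presence chose the regions. Other values of libraries were compared by exact permutation. Widths were compared by limma 3.58.1 in R 4.3.3 on log2 bp, in regions with a peak in every library fitted, and the fit was tested on simulated data. Same-numbered libraries correlated at -0.056, 0.213 and 0.043, so the numbers were not treated as pairs.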

Additional observations from a re-analysis of the deposited data

How the results depend on the processing

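Only peak presence, width and enrichment over input were available, and a region missing from a list is one without a call, not one shown to lack acetylation. The lists differed in length, and siPHF13+TGFb replicate 1 decided most values of the depletion comparison. The H3K27me3 differences between classes rested largely on regions near assembly gaps or with H3K27me3 in all 6 lists. Most alternatives were planned, and leaving out regions near assembly gaps or with H3K27me3 in all 6 lists was added after the data had been seen. The causes of the changes below were not tested, other than the smaller number of peaks or libraries that a setting leaves by construction.

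The 3813 regions became 543 with the 50% strongest peaks of each list, 84 with 6 lists of 6004 peaks, 1030 with 5 lists of 19413 and 1802 with at least 3 lists. In the same order, regions gained with TGFβ numbered 154, 12, 224 and 597. These were 28.4%, 14.3%, 21.7% and 33.1%, against 11.7%, 5.96%, 6.76% and 10.3% of all regions. Regions lost with TGFβ numbered 5, 11, 45 and 10. These were 0.921%, 13.1%, 4.37% and 0.555%, against 0.258%, 4.44%, 1.65% and 0.112%. Regions gained with depletion numbered 1, 7, 96 and 0. These were 0.184%, 8.33%, 9.32% and 0%, against 0.0378%, 3.16%, 3.05% and 0.00894%. Regions lost with depletion numbered 70, 7, 160 and 33. These were 12.9%, 8.33%, 15.5% and 1.83%, against 3.46%, 4.96%, 4.17% and 0.478%. Regions lost with TGFβ were 11 with no H3K4me3 within 1000 bp and 9 with regions near gaps left out. Regions gained with depletion were 1 with −log10 q of at least 3 or an overlap of 25%, and 0 with the starts of all transcripts. The change in covered length with depletion reversed to 0.39 with 5 equal lists. The H3K27me3 difference from distal regions with H3K4me3 reversed to 0.0601 without the regions marked in all 6 lists. The AP-1 share reversed with TGFβ to -5.62 points over whole regions and -5.57 with 6 equal lists, and with depletion to -1.52 in a 500 bp window.

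Leaving out 1 library at a time gave 2118 to 3808 regions, 950 to 2314 gained and 20 to 115 lost with TGFβ, and 2 to 129 gained and 343 to 1636 lost with depletion. The highest gain with TGFβ came without siControl+TGFb replicate 2, at 60.7% against 25.1% of all regions. The highest loss with depletion came without siPHF13+TGFb replicate 2, at 42.9% against 56.5% of all regions. The log2 covered length ranged from 1.13 to 2.63 with TGFβ and from -6.08 to 0.60 with depletion, and the AP-1 share from 0.0692 to 6.35 points with depletion. Calls by width ranged from 0 to 40 with TGFβ and from 0 to 37 with depletion. The H3K27me3 share with TGFβ ranged from -1.22 to 0.118 points, turning without siControl replicate 2. The H3K27me3 difference ranged from 1.69 to 1.83 against TSS-proximal regions and from -2.37 to -2.32 against distal regions with H3K4me3, with an exact permutation p of 0.0625, the smallest that 5 libraries allow.

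With a replicate block on same-numbered libraries, the differences in covered length stayed 1.88 and -2.74 and the width fits called 0 and 0, and the block changed no other call.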

Other observations

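Density along the chromosomes was uneven. The distal H3K27ac regions without H3K4me3 were densest on chromosome 10, at 1.77 per Mb, followed by chromosome 17 at 1.74 and chromosome 20 at 1.65. AP-1 letters within 500 bp of the summit were found in 59.3% of the regions listed in exactly 2 lists, 62.0% of those in 3, 64.7% of those in 4 and 71.3% of those in 5 or 6. This order did not hold in the 300 bp window, where the shares were 13.9%, 13.4%, 15.1% and 10.8%. Within 500 bp, AP-1 letters were found in 65.3% of regions in introns of coding genes, 57.6% of intergenic regions and 43.4% of regions more than 500 kb from a coding TSS. They were also found in 45.0% of regions within 1 Mb of an assembly gap against 65.1% of the others. Of the 18 regions lost with TGFβ, 6 had a match within 500 bp of the summit.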
